A study of Mus musculus with 6 samples.

Results

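Ribosomal protein pseudogenes are copies of ribosomal protein mRNAs that were written back into the genome, and their annotated symbols carry the name of the parent gene followed by -ps. The study asked what the loss of the chromatin remodelling subunits BAF155 (Smarcc1) and BAF170 (Smarcc2) does to gene expression in mouse neural crest cells. Cells were taken from E11.25 embryos by sorting for GFP, which Wnt1-Cre switches on from the mTmG reporter, and poly(A) RNA was sequenced from strand-specific libraries. The control genotype was Wnt1Cre/+;BAF155flox/+;BAF170flox/+;Rosa26mTmG/+, so controls kept 1 intact allele of each gene after recombination, and the deficient genotype was Wnt1Cre/+;BAF155flox/flox;BAF170flox/flox;Rosa26mTmG/+. Members were chosen by symbol and by depth: a gene symbol beginning with Rpl or Rps and holding -ps, and a summed count of at least 15 over the 6 libraries. GENCODE held 300 such symbols, the count table held 273 of them, and 119 reached the summed count. Of the other 154, 65 had no count in any library.

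Most such copies lack introns and the promoter of the parent, because they descend from a spliced transcript. They differ from the parent by the substitutions and small gaps gained since insertion, so a recent copy can be almost or wholly identical to the parent mRNA. A read from an identical stretch fits the parent and the copy equally well, and the gene it is counted for then depends on how the aligner and the counting step treat such reads.

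The 119 members belonged to 50 parent genes, with at most 7 members for 1 parent (Rpl31). The annotation listed 112 of them as processed pseudogenes, 3 as transcribed processed pseudogenes and 4 as protein-coding genes (Rps12-ps3, Rpl9-ps6, Rpl36a-ps1 and Rpl10-ps3). Members nearest the depth limit included Rps27-ps1 and Rpl31-ps14, each with a summed count of 15, and the 3 nearest outside it were Rps2-ps9, Rps2-ps5 and Rpl17-ps9, each with 14. Control libraries 1, 2 and 3 held 9662823, 8191219 and 11661941 counts, and deficient libraries 1, 2 and 3 held 12633319, 16557026 and 19808620. The shallowest deficient library held more counts than the deepest control, so depth and group cannot be told apart.

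Smarcc1 was measured at 42.1, 55.0 and 35.1 CPM in the controls and at 29.4, 26.4 and 24.5 CPM after deletion. The log2 fold change of Smarcc1, deficient over control, was -0.71 (SE 0.16, n = 3 and 3; edgeR adjusted p 0.0676, Benjamini-Hochberg, range over the alternatives 0.000718 to 0.543), and the groups did not overlap. The call was lost without control 1 (adjusted p 0.223), deficient 2 (0.136) or deficient 3 (0.225) and with scaling to macrophage markers (0.118), and the direction turned to 0.30 when libraries were scaled to embryonic markers. Smarcc2 stood at 91.8, 89.9 and 92.9 CPM in controls and at 85.9, 82.3 and 86.8 CPM in deficient libraries, a log2 fold change of -0.11 (SE 0.06; edgeR adjusted p 0.251, Benjamini-Hochberg). Counts per gene do not separate the floxed exons from the rest of either transcript.

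Summed CPM of 14 macrophage markers was 13372, 12542 and 14565 in the controls and 14688, 15339 and 16026 in the deficient libraries, with Ctss the most abundant at a mean of 3833 CPM. The 50 embryonic markers, which cover crest derivatives and neural tube, summed to 506, 701 and 405 CPM in controls and to 351, 275 and 254 CPM in deficient libraries. In every library the 14 macrophage markers thus summed to far more CPM than the 50 embryonic markers. The pseudogene values therefore cannot be read as those of neural crest cells alone. Among the tested genes of each list the median log2 fold change was 0.19 for macrophage markers and -0.93 for embryonic markers. Fewer cells of a type and less RNA per cell cannot be told apart in sorted bulk RNA. The part that either cell mixture has in the pseudogene values was not tested.

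The question for the pseudogenes as a whole was how much of the RNA they account for and whether that differed between groups. Together the 119 members summed to 2158, 2107 and 2146 CPM in the controls and to 2197, 2327 and 2331 CPM in the deficient libraries. Each deficient library was above each control on these library sizes, but the groups overlapped with libraries taken at their totals or scaled to ribosomal protein genes, and scaled to macrophage markers the sums were 2297, 2442 and 2081 CPM in controls and 2182, 2165 and 2109 CPM in deficient libraries. Scaled to embryonic markers they were 1532, 1014 and 2220 CPM against 2275, 3583 and 4136 CPM, again with each deficient library above each control. The ribosomal protein genes themselves summed to 6784, 6752 and 7057 CPM in controls and 7585, 7267 and 8066 CPM in deficient libraries. Mean CPM per member ran from 0.195 to 190, with a median of 1.70, and 55 members reached 2 CPM while 49 stayed under 1. The 10 most abundant members held 52.9% of the members' CPM.

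These 10 were Rpl19-ps11, Rps16-ps2, Rps10-ps2, Rps6-ps4, Rpl3-ps1, Rpl10a-ps1, Rpl31-ps8, Rps24-ps3, Rpl14-ps1 and Rpl28-ps1. Rpl19-ps11 (ENSMUSG00000081094, GRCm38 8:19492936-19493526) led with 188, 179 and 193 CPM in controls and 171, 220 and 190 CPM in deficient libraries, and Rps16-ps2 followed with 163, 159 and 185 CPM against 159, 198 and 167 CPM. In both genes the ranges of the groups overlapped. The 10 log2 fold changes ran from -0.09 to 0.22. None of them was called by edgeR on TMM-normalised sizes after filterByExpr and without a replicate block. Scaled to embryonic markers all 10 were called higher, where 63.9% of all genes were. The lowest edgeR adjusted p was that of Rps10-ps2, 0.108 (Benjamini-Hochberg; 0.0138 to 0.788 over the alternatives, called with DESeq2, 0.0778, and without filterByExpr, 0.0967), which measured 130, 113 and 126 CPM in controls and 142, 132 and 157 CPM in deficient libraries, without overlap. Scaled to embryonic markers, Rpl14-ps1 and Rpl28-ps1 turned from -0.02 and -0.09 to 0.95 and 0.89.

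Of the 119 members, 21 had more counts than their parent gene. The highest ratios were those of Rpl23a-ps3 (2129 counts against 43 for Rpl23a, 49.5 times), Rpl38-ps2 (5853 against 126, 46.5 times) and Rps6-ps4 (9569 against 346, 27.7 times). Per kilobase, each copy's CPM was divided by its exon length and each parent's by the shortest of its transcripts aligned to a member. On this measure 26 members of 20 parents exceeded the parent. With the parent's length taken over the union of its exons the number was 42. For Rpl38-ps2 the values were 343 CPM per kilobase for the copy and 5.04 for the parent. For 18 of the 50 parents the members together held more counts than the parent.

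These levels are levels of assigned reads, and the sequences set how far assignment can be trusted. The named parent was the best-matching gene for 117 of the 119 members. The exceptions included Rpl36a-ps3, which matched Rpl36al best and was 87.5% identical to Rpl36a. For the 117, identity to the parent transcript ranged upward from 89.8% with a median of 98.7%, 45 members reached 99% and 12 were identical over the aligned bases. The median share of 50-base windows that were distinct, as defined by annotated transcripts, was 35.2% per member. Of the 119, 14 had no distinct window, and these held 38.4% of the members' CPM, with a median summed count of 5233.5. They included Rps16-ps2, Rps6-ps4 and Rpl38-ps2, and 5 of the 10 most abundant members. The 40 members with at least 50% distinct windows held 3.06% of the CPM, with a median summed count of 48 and a highest of 859. Across the 119 genes, which are not independent replicates, Spearman's rho between the distinct share and the summed count was -0.46. The summed count was also used to choose the members, so this value describes the chosen set only. How reads with several equal alignments were counted is not stated. A 50-base stretch of a member without distinct windows also lies in at least 1 other annotated transcript, and no table gives the part of its counts that such stretches hold.

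The filter on low counts kept 74 members for the test and left out 45. Of the 74, edgeR called 6 higher (8.11%) and 2 lower (2.70%) in the deficient libraries at an adjusted p of at most 0.1 after Benjamini-Hochberg adjustment; over all 13961 genes tested the shares were 4.18% higher and 7.75% lower. At all thresholds 2 members were higher and 1 was lower, where 0.0573% and 4.88% of all genes were. Groups did not overlap in 9 members that were higher and in 3 that were lower, beside 15% and 16.4% of all genes. At an unadjusted p under 0.05 there were 17 members (23.0%), 13 higher (17.6%) and 4 lower, where 27.3% of all genes were, 12.1% higher. The smallest adjusted p of any member was 0.0739, so at an adjusted p of 0.05 edgeR called 0 members. At 0.1, DESeq2 called 8 higher and 2 lower, beside 6.21% and 8.63% of all genes, and limma-voom 3 higher and 3 lower, beside 4.52% and 9.10%.

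How many members were called turned on single libraries. Without control 1, control 2 or deficient 3, edgeR called 0 members, with 14, 12 and 11 at an unadjusted p under 0.05, and over the whole table it then called 0, 75 and 9 genes. Without deficient 2 it called 8 members higher and 5 lower (0.630% and 1.77% of all genes), and without deficient 1 it called 2 higher and 1 lower (3.29% and 10.8% of all genes). With control 3 left out, edgeR called 5 members higher and 3 lower, beside 11.8% and 13.9% of all genes. Of the 8 members called with all libraries, 6 were still called without control 3, 3 without deficient 1 and 4 without deficient 2. Scaling mattered as well: with libraries scaled to ribosomal protein genes 1 member was called higher and 4 lower (0.0501% and 10.9% of all genes), scaled to embryonic markers 62 higher and 0 lower (60 and 0 at an unadjusted p under 0.05; 63.9% and 0.523% of all genes were called), and scaled to macrophage markers 0 either way (4 higher and 6 lower at an unadjusted p under 0.05), as for the whole table. Under these 3 scalings the median over the whole set of tested genes shifted from -0.02 to -0.14, 0.95 and -0.19.

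The median log2 fold change of the 74 tested members was 0.20 (quartiles -0.01 and 0.51), with 55 above 0 and 19 below. It was -0.02 for all tested genes, 0.09 for 85 tested cytosolic ribosomal protein genes, 0.13 for the 49 tested parents and 0.08 for 731 other processed pseudogenes. Of all tested genes 6656 were above 0 and 7305 below, and of the other processed pseudogenes 445 were above and 286 below. The members' median stood 0.22 above that of all genes, a difference that scaling hardly alters because it shifts all genes about alike. The difference was 0.10 with the length correction, 0.04 with a minimum count of 30 and 0.09 without deficient 3, where the members' median was 0.08. It was 0.24 without control 3 and 0.28 without filterByExpr, where all 119 members were tested and their median was 0.25. It also depended on abundance: the 29 members with at least 1000 counts had a median of 0.05 and a range of -0.29 to 0.54, and the 45 tested members with fewer had a median of 0.33 and a range of -1.41 to 1.71. The filter passes a gene that is high enough in 3 libraries: 14 of the 74 tested members were over its 0.823 CPM in 3 to 5 libraries, 8 of them in more deficient than control libraries and 1 in fewer. A minimum count of 30 left 53 members with a median of 0.03.

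Past all thresholds, Rpl36-ps2 (ENSMUSG00000024205, 11:76601319-76601629, plus strand, GRCm38) measured 4.68, 4.55 and 5.25 CPM in controls and 8.30, 7.21 and 6.98 CPM in deficient libraries, and the groups did not overlap. Its log2 fold change was 0.62 (SE 0.18, n = 3 and 3; edgeR adjusted p 0.0862, Benjamini-Hochberg, 0.045 to 0.249 over the alternatives). It lies opposite an intron of Abr. Its parent Rpl36 measured 22.4, 23.9 and 25.9 CPM in controls and 54.9, 23.7 and 54.2 CPM in deficient libraries, where deficient 2 lay inside the control range, and with a log2 fold change of 0.87 (SE 0.37) it was not called (edgeR adjusted p 0.215, Benjamini-Hochberg, 0.00036 to 0.521 over the alternatives), although it was scaled to embryonic markers (0.0336) and without deficient 2, at 1.17 (adjusted p 0.00036). The exact permutation test on the log2 ratio of copy to parent gave p 0.8. The call on Rpl36-ps2 was lost without control 1 (adjusted p 0.247), control 2 (0.244), deficient 1 (0.128), deficient 2 (0.158) or deficient 3 (0.247), and with libraries scaled to ribosomal protein genes (0.249) or macrophage markers (0.217).

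Rps15a-ps4 (ENSMUSG00000083757, 4:132219988-132220489, minus strand, GRCm38), a transcribed processed pseudogene, measured 10.4, 8.03 and 8.04 CPM in controls and 2.27, 5.50 and 2.18 CPM in deficient libraries. The deficient values were all lower than the control values, with deficient 2 nearest to them. The log2 fold change was -1.41 (SE 0.35; edgeR adjusted p 0.0739, Benjamini-Hochberg, 0.00353 to 0.376 over the alternatives). It was -1.99 without deficient 2 (adjusted p 0.00818), and the call was lost without control 1 (0.244), control 2 (0.214) or deficient 3 (0.208). Scaled to embryonic markers it was -0.42 and not called (0.376), and it was not called when scaled to macrophage markers (0.114).

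Rpsa-ps12, on chromosome 4, measured 9.89, 8.43 and 10.2 CPM in controls and 6.19, 6.23 and 7.36 CPM in deficient libraries, with every deficient value under every control value. Its log2 fold change was -0.53 (SE 0.17; edgeR adjusted p 0.0933, Benjamini-Hochberg, 0.0506 to 0.353 over the alternatives), and turned to 0.43 when libraries were scaled to embryonic markers. The call was lost without any 1 of the 6 libraries, with adjusted p between 0.118 and 0.263, and with DESeq2 (0.151), library totals (0.178), scaling to macrophage markers (0.114) and no filterByExpr (0.103). Rpsa itself measured 114, 113 and 105 CPM in controls and 156, 107 and 148 CPM in deficient libraries, a log2 fold change of 0.31 (SE 0.14; edgeR adjusted p 0.197, Benjamini-Hochberg, 0.033 to 0.655 over the alternatives), and was called with DESeq2 (0.0575), scaled to embryonic markers (0.0557) and without deficient 2, at 0.46 (adjusted p 0.033). For Rps15a-ps4 and Rpsa-ps12 the log2 ratio to the parent separated the groups completely, which gives the smallest exact permutation p the design allows, 0.1. The ratio did so for 11 of the 119 members (9.24%). With no difference between groups a share of 0.1 is expected, and this count does not exceed it.

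The remaining calls at an adjusted p of at most 0.1, with Rps15a-ps7, were named after their values were seen. Rpl17-ps10 measured 71.9, 73.4 and 64.4 CPM in controls and 81.8, 80.5 and 93.8 CPM in deficient libraries, and Rpl34-ps1 65.7, 64.6 and 59.7 CPM against 77.6, 70.7 and 80.2 CPM, both without overlap. Rps10-ps1 measured 15.5, 17.7 and 18.7 CPM against 22.6, 19.4 and 24.8 CPM, also without overlap. Their log2 fold changes were 0.29, 0.27 and 0.36, with edgeR adjusted p of 0.0771, 0.0765 and 0.0986 (Benjamini-Hochberg), and none of the 3 was called when libraries were scaled to ribosomal protein genes or macrophage markers, or with the length correction. Rps10-ps1 was also not called with DESeq2 (0.128), limma-voom (0.12) or a minimum count of 30 (0.115), and over the alternatives its adjusted p ran from 0.0358 to 0.429, that of Rpl17-ps10 from 0.0268 to 0.567 and that of Rpl34-ps1 from 0.0163 to 0.624. Rpl34-ps1 has no distinct 50-base window, and 1.57% of its windows of 100 bases are distinct. Without control 1, control 2 or deficient 3 all 3 calls were lost, with adjusted p between 0.164 and 0.358; Rps10-ps1 was also lost without deficient 1 (0.138) and deficient 2 (0.106), and Rpl17-ps10 without deficient 2 (0.102).

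The largest log2 fold changes in each direction belonged to members with summed counts under 1000. Rpl17-ps4 had 7, 10 and 9 counts in controls and 43, 9 and 105 in deficient libraries, a log2 fold change of 1.71 (SE 0.77; edgeR adjusted p 0.203, Benjamini-Hochberg, 0.000168 to 0.503 over the alternatives). Rps15a-ps5 had 23, 49 and 51 counts in controls and 236, 75 and 389 in deficient libraries, a log2 fold change of 1.68 (SE 0.68; edgeR adjusted p 0.197, Benjamini-Hochberg, 1.58e-05 to 0.467). In CPM, deficient 2 lay under all 3 controls for Rpl17-ps4 and inside the control range for Rps15a-ps5. With all libraries edgeR called neither on TMM-normalised sizes, though DESeq2 called Rpl17-ps4 (0.0824) and the scaling to embryonic markers called both (0.000168 and 1.58e-05), and without deficient 2 edgeR called both, at 2.20 (adjusted p 0.043) and 2.10 (0.0347). Rps27a-ps2 (1.34), Rpl15-ps3 (1.29) and Rps13-ps1 (0.93) were among those that came next and were not called by edgeR, nor were the negative values of Rps2-ps6 (-1.12), Rpl13a-ps1 (-0.60), Rps15a-ps6 (-0.38) and Rpl19-ps1 (-0.37). Rpl15-ps3, Rps27a-ps2 and Rps2-ps6 lay just past the threshold (edgeR adjusted p 0.1003, 0.1012 and 0.1015, Benjamini-Hochberg), and without filterByExpr all 3 were called (0.0979, 0.0917 and 0.0984). With library totals all 3 were called as well. Rps2-ps6 was also called with DESeq2 (0.0941), limma-voom (0.0957), the length correction and scaling to ribosomal protein genes (0.0525), as was Rps27a-ps2 with the last of these (0.0976). Scaled to embryonic markers Rps27a-ps2 (0.00802), Rpl15-ps3 (0.0255) and Rps13-ps1 (0.0391) were called. Leaving out deficient 2 brought Rps27a-ps2 (1.67, adjusted p 0.0823), Rps2-ps6 (-1.54, 0.0991) and Rpl13a-ps1 (-1.70, 0.0937) to an adjusted p under 0.1, and leaving out control 3 brought Rps2-ps6 there (-1.26, 0.0698). Over the alternatives adjusted p ran from 0.00802 to 0.295 for Rps27a-ps2, 0.0255 to 0.319 for Rpl15-ps3, 0.0183 to 0.863 for Rps2-ps6, 0.0391 to 0.559 for Rps13-ps1 and 0.0937 to 0.9 for Rpl13a-ps1.

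Deficient 2 stood apart over the members with summed counts under 250, which were sorted into count classes after their values were seen. In the 18 members with a summed count of 50 to under 100, summed CPM was 11.8, 12.04 and 11.7 in the controls and 24.0, 8.80 and 23.4 in the deficient libraries. In the 20 members from 100 to under 250 it was 33.6, 37.5 and 37.5 against 48.6, 31.5 and 52.6, and in the 35 members under 50 it was 9.997, 11.1 and 9.44 against 15.5, 7.76 and 16.3. Deficient 2 was thus below every control in all 3 classes, here and under the other scalings except the one to embryonic markers (8.38, 5.79 and 12.1 against 24.8, 13.5 and 41.5 in the class from 50), and deficient 1 and deficient 3 were each above every control under all of them. In the 29 members with at least 1000 counts the values were 2010, 1954 and 1986 against 2000, 2180 and 2125, where deficient 2 was the highest library, as it was under none of the other scalings.

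Counted by member, the library with the highest CPM among the 73 members under 250 counts was control 1 for 9, control 2 for 7, control 3 for 7, deficient 1 for 21, deficient 2 for 3 and deficient 3 for 26. Among 862 other processed pseudogenes of the same depth the numbers were 110, 174 and 137 for the controls and 166, 79 and 196 for the deficient libraries. Summed CPM of these 862 was 670, 727 and 735 in controls and 794, 617 and 810 in deficient libraries. Deficient 2 was thus below every control in that list too, with deficient 1 and deficient 3 above. Among 4446 protein-coding genes of that depth the numbers were 942, 1830 and 556 for the controls and 454, 413 and 251 for the deficient libraries. Summed CPM of these genes was 6302, 7444 and 5372 in controls and 4988, 4591 and 4005 in deficient libraries. The cause of the difference between deficient 2 and the other deficient libraries was not tested.

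**Figure D1:**
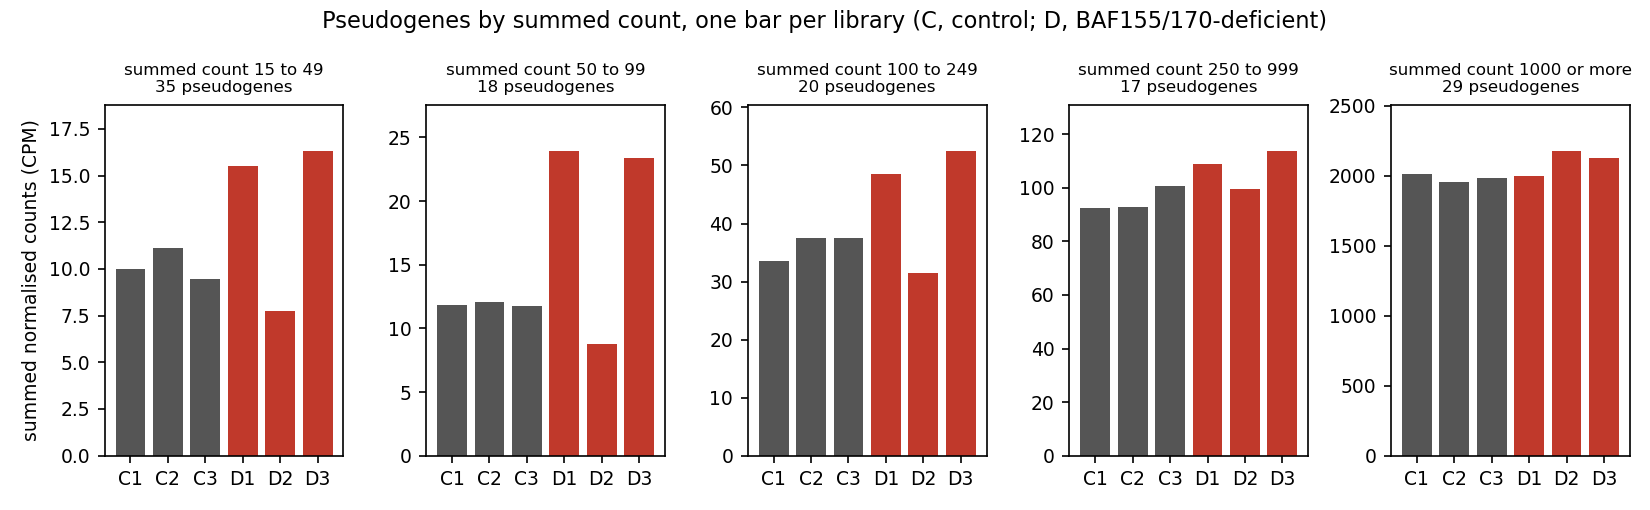
Summed CPM of the pseudogenes in each class of summed count, for the 3 control and 3 deficient libraries. In the 3 classes under 250 counts deficient 2 lies below every control and the other deficient libraries lie above. Among members with at least 1000 counts deficient 2 is the highest at 2180 CPM. Scaled to embryonic markers, which is not drawn, deficient 2 lies above the controls in all 3 classes under 250 counts, at 11.9, 13.5 and 48.5 CPM.

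Rps15a had copies called in both directions, Rps15a-ps4 lower and Rps15a-ps7 higher, of which Rps15a-ps4 was not called when libraries were scaled to embryonic markers and Rps15a-ps7 was not called when they were scaled to ribosomal protein genes. The family was picked for a fuller account after these values were seen. The parent measured 101, 108 and 97.3 CPM in controls and 108, 97.5 and 110 CPM in deficient libraries (log2 fold change 0.04, SE 0.07). Rps15a-ps7 measured 25.3, 26.8 and 30.2 CPM against 41.6, 29.9 and 44.0 CPM, with deficient 2 inside the control range. Its log2 fold change was 0.49 (SE 0.15; edgeR adjusted p 0.0938, Benjamini-Hochberg, 0.00906 to 0.29 over the alternatives), and the call was lost without control 1 (0.273), control 2 (0.29), deficient 1 (0.141) or deficient 3 (0.287), and with limma-voom (0.109), a minimum count of 30 (0.109) and scaling to ribosomal protein genes (0.116) or macrophage markers (0.254). Rps15a-ps5 measured 2.45, 6.56 and 4.19 CPM against 18.5, 4.58 and 18.5 CPM, and Rps15a-ps6 3.08, 4.15 and 7.39 CPM against 2.35, 6.97 and 2.09 CPM. Rps15a-ps3 measured 3.08, 2.27 and 2.79 CPM against 2.19, 1.71 and 2.56 CPM. In Rps15a-ps4 and Rps15a-ps6 deficient 2 was the highest deficient library, and in Rps15a-ps3, Rps15a-ps5, Rps15a-ps7 and the parent it was the lowest. Pooled over the parent and its 5 copies, the controls gave 146, 156 and 149.9 CPM and the deficient libraries 174, 146 and 179 CPM.

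**Figure D2:**
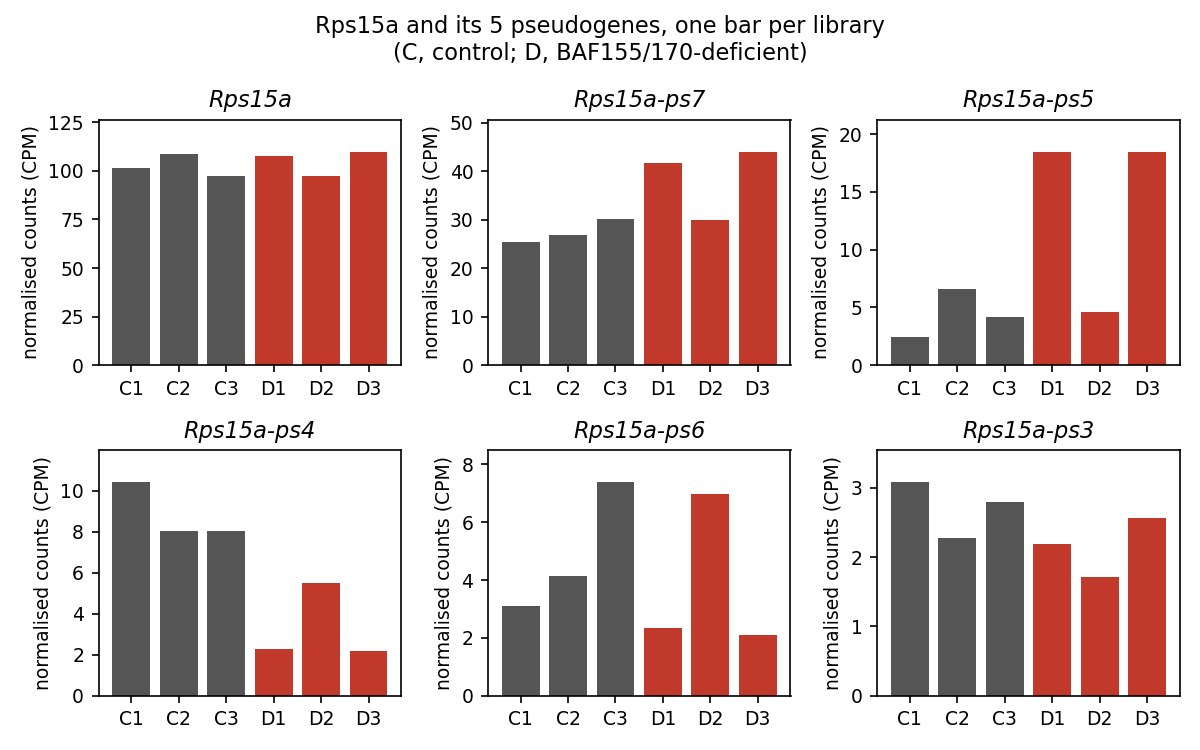
CPM of Rps15a and its 5 pseudogenes in each library, controls and deficient libraries side by side. Rps15a-ps4 is lower in all 3 deficient libraries (2.27, 5.50 and 2.18 CPM) than in any control, and the parent lies between 97.3 and 110 CPM in the 6 libraries.

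Over the 390 coding bases Rps15a-ps3 differed from Rps15a at 7, Rps15a-ps4 at 9, and Rps15a-ps5 and Rps15a-ps6 at 5 each, and Rps15a-ps7 differed at 4 of 389 aligned. Rps15a-ps5 lies opposite an intron of Lrrc8d and Rps15a-ps6 in an intron of Nudcd3 on the same strand, and the part of reads from these transcripts in the copies' counts was not tested. Rps15a-ps3 lies opposite an intron of 1700045H11Rik, which had 1 count in control 1 and 0 in each other library.

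Rpl9-ps4 (ENSMUSG00000094989, 13:72454762-72455340, minus strand, GRCm38), the other member higher at all thresholds, measured 3.83, 5.08 and 3.04 CPM in controls and 7.36, 5.07 and 8.45 CPM in deficient libraries. Deficient 2 fell just inside the control range, so the groups overlapped. The log2 fold change was 0.83 (SE 0.26; edgeR adjusted p 0.0931, Benjamini-Hochberg, 0.0152 to 0.318 over the alternatives). The call was lost without control 1 (0.263), control 2 (0.174), control 3 (0.136), deficient 1 (0.121) or deficient 3 (0.318), and was kept without deficient 2 (0.0991). It was also lost with limma-voom (0.103), a minimum count of 30 (0.108) and scaling to ribosomal protein genes (0.132) or macrophage markers (0.256). Its parent Rpl9 measured 10.4, 8.29 and 14.1 CPM in controls and 11.4, 10.7 and 11.9 CPM in deficient libraries, a log2 fold change of 0.03 (SE 0.18).

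Distinct 50-base windows made up 9.43% of Rpl9-ps4 and 78.1% of the Rpl9 transcripts. Over the 576 coding bases Rpl9-ps4 and Rpl9-ps6 each differed from Rpl9 at 1 base and Rpl9-ps7 at 3. The share of reads that cross a difference was not measured. Coding bases 147 to 266 are shown as the first stretch of 120 bases with the most differences summed over the copies. They include the 1 base at which Rpl9-ps4 differs, and capitals mark differences from the parent. The coordinates (GRCm38) are 5:65389603-65390754, minus strand over 3 exons for Rpl9, 13:72455075-72455194, minus strand for Rpl9-ps4, 19:32466286-32466405, minus strand for Rpl9-ps6 and 2:70459128-70459247, plus strand for Rpl9-ps7.
Rpl9: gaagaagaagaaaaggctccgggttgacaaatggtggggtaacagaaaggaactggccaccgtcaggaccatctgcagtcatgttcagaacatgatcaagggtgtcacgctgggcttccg
Rpl9-ps4: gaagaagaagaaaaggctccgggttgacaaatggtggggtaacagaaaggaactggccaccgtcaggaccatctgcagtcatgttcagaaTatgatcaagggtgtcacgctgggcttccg
Rpl9-ps6: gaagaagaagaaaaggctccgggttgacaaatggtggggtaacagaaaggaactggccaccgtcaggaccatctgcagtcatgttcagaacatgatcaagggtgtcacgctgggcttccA
Rpl9-ps7: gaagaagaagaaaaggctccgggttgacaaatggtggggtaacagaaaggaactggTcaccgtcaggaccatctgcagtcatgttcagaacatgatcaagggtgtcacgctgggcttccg

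Each tested member was set against its parent to ask whether the pair moved together. In 73 pairs with both genes tested, the pseudogene's log2 fold change minus the parent's had a median of 0.13 (quartiles -0.24 and 0.49), with 41 pairs above 0, 32 below and 28 within 0.25 of 0. The median was -0.05 with a minimum count of 30, and -0.03 in the 54 pairs whose pseudogene had at least 2 CPM. Without deficient 2 it was 0.05, and without deficient 3 also 0.05. Across the 73 pairs, which share parents and are not independent, Pearson's r between the log2 fold changes was -0.04 and Spearman's rho -0.05. In the 54 pairs whose pseudogene had at least 2 CPM, Pearson's r was 0.12.

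**Figure D3:**
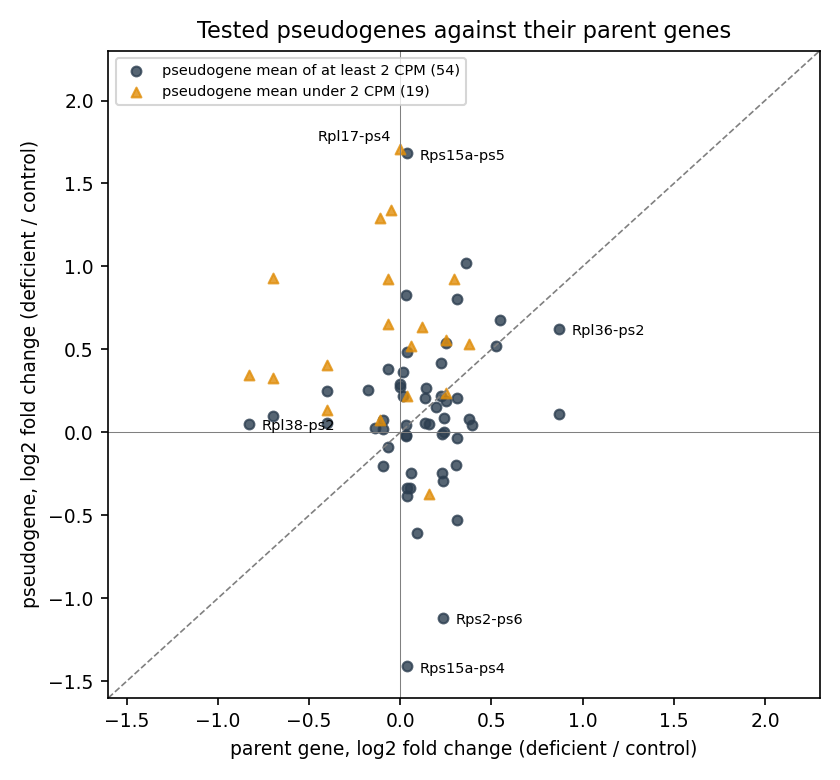
Log2 fold change of each tested pseudogene (vertical axis) against that of its parent gene (horizontal axis), with the dashed line of equal change; circles are pseudogenes with a mean of at least 2 CPM and triangles those under it. The pseudogenes run from -1.41 to 1.71 and the parents from -0.83 to 0.87.

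Summed over all members and all parents, the counts of pseudogenes came to 66.0% of those of their parents in control 1 (64.8 to 67.1, from the 95% Wilson interval of the pseudogenes' share of both), 64.9% in control 2 (63.6 to 66.2) and 65.4% in control 3 (64.4 to 66.4). In the deficient libraries the share was 58.2% in deficient 1 (57.3 to 59.1), 68.5% in deficient 2 (67.6 to 69.4) and 58.3% in deficient 3 (57.7 to 59.0). The intervals cover counting error only. The deficient libraries thus lay on both sides of the controls, and no scaling of libraries alters these shares. Parents summed to 3271, 3245 and 3283 CPM in controls and to 3775, 3398 and 3996 CPM in deficient libraries. Pooling each parent with its members avoids dividing reads among those genes, but not between them and near-identical genes outside the pool. The pooling gave 50 families with a median log2 difference of 0.11 between deficient and control libraries. Of these families 42 were above 0, but 24 scaled to ribosomal protein genes, 19 scaled to macrophage markers and 50 scaled to embryonic markers.

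Other transcripts lie over many members. By annotation 47 of the 119 overlapped another gene, 19 of them on the same strand and 31 on the opposite strand, and 72 overlapped none. Of the tested members 21 overlapped a gene on the opposite strand. With the strand setting of the count unknown, the part of these genes' reads in the members' counts was not tested.

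With 3 libraries in each group, adjusted p of the called members lay between 0.0739 and 0.0986, near the threshold of 0.1. The counts were not separated by read alignment, so no member could be measured on its distinct windows alone. The filter on low counts left 45 of the 119 members untested. Whether the copies are transcribed from their own loci was not tested for any member.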

How the data were processed

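RNA was measured in 6 libraries of GFP-sorted cells, 3 control and 3 BAF155/170-deficient. The study names these cells neural crest cells. The authors trimmed adapters, aligned read pairs to GRCm38 with STAR and counted genes with featureCounts. The deposited values are raw counts per gene, without normalisation. The annotation release, the strand setting and the treatment of reads with several alignments are not stated. The labels name both groups, and the genotypes come from the study's methods.

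Ensembl identifiers were matched to GENCODE mouse annotation with the version suffix set aside, and 46488 of 46983 received a symbol. Members and the gene lists used beside them were chosen with earlier results of these data known. The groups were compared with edgeR 4.0.16 (R 4.3.3) by robust quasi-likelihood F tests after filterByExpr (minimum count 10, minimum total 15) and TMM normalisation, with Benjamini-Hochberg adjustment over the 13961 genes tested. CPM values are counts scaled to normalised library sizes, and log2 values use a prior count of 2. Calls required an adjusted p of at most 0.1. The set called "all thresholds" also required the size of the log2 fold change to be 0.58 or more, and a mean of at least 2 CPM. The common biological coefficient of variation was 12.8%.

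Genes to be named were fixed by rule: Smarcc1 and Smarcc2, the 10 members with the highest CPM, the 6 tested members with the largest log2 fold change in each direction, every member past all thresholds, the members nearest the summed count of 15 on either side, the 3 members with the highest counts relative to their parent, and the parents of these. Not every gene the rule names is given. Members and parents outside the rule were chosen after their values were seen, and so were the count classes, the families whose sequences are compared and the test of distinct windows.

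Each pseudogene transcript was aligned to the transcripts of its named parent with Biopython 1.88 (local alignment; match 2, mismatch -3, gap opening -5, gap extension -2), and the best-scoring transcript was kept. A window of 50 bases was called distinct when it occurred in no annotated transcript of another gene on the sense strand; the genome outside annotated transcripts was not searched. Log2 ratios of pseudogene to parent were compared by two-sided exact permutation tests, whose smallest possible p with 3 libraries against 3 is 0.1. Alternatives were DESeq2 1.42.0, limma-voom (limma 3.58.1), library totals, scaling to ribosomal protein genes, embryonic or macrophage markers, no filterByExpr in favour of a summed count of 15, a minimum count of 30, a replicate block, a correction for exon length (lowess span 0.3), an adjusted p of 0.05, prior counts of 0.5 and 5, and leaving out each library. Summaries used Python 3.11.15, numpy 2.4.6, pandas 2.3.3, scipy 1.17.1 and matplotlib 3.10.9.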

Additional observations from a re-analysis of the deposited data

How the results depend on the processing

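The counts of calls and the medians were recomputed under each alternative. Of the members, edgeR called 6 higher and 2 lower. The numbers were 1 and 4 scaled to ribosomal protein genes, 62 and 0 scaled to embryonic markers (60 and 0 at an unadjusted p under 0.05), 0 and 0 scaled to macrophage markers (4 and 6 at an unadjusted p under 0.05) and 3 and 4 with the length correction (6.40% and 6.75% of all genes). At an adjusted p of 0.05 they were 0 and 0 (13 and 4 at an unadjusted p under 0.05). DESeq2 gave 8 and 2. Library totals also gave 8 and 2 (0.537% and 7.21% of all genes). Without filterByExpr, where 119 members were tested, 9 were higher and 2 lower (3.87% and 6.25% of all genes). The number higher was also 3 with limma-voom, which called 3 lower, and 3 with a minimum count of 30, where 53 members were tested and 2 were lower (2.52% and 6.12% of all genes). With the replicate number of the sample titles as a block 11 were higher and 5 lower (11.5% and 14.7% of all genes). Residual correlations between control and deficient libraries of the same title number were 0.03, -0.03 and 0.29, so these numbers do not show a pairing. The labels of the count columns number the deficient libraries otherwise. By those labels the correlations were 0.26 (control 2 with deficient 1) and 0.0004 (control 3 with deficient 2), and a block by them was not run. The block by title number otherwise enters only the ranges of adjusted p over the alternatives. Leaving out 1 library gave 0 to 8 higher and 0 to 5 lower. The members' median, 0.20, was 0.073 scaled to ribosomal protein genes, 1.14 scaled to embryonic markers, 0.033 scaled to macrophage markers, 0.032 with a minimum count of 30 and 0.077 over members with at least 2 CPM, and 0.078 to 0.22 when 1 library was left out. The median of pseudogene minus parent, 0.13, moved by less than the spread between libraries (0.23) under each alternative, though its sign changed with a minimum count of 30 (-0.05); leaving out 1 library gave 0.046 to 0.18. For 54 named genes 857 values were recomputed: 625 kept direction and call, 76 lost the call, 64 gained one and 83 changed sign with no call on either side. The other 9 changed sign with a call on at least 1 side, all of them scaled to embryonic markers, to log2 fold changes of 0.30 (Smarcc1), 0.95 (Rpl14-ps1), 0.89 (Rpl28-ps1), 0.43 (Rpsa-ps12), 0.88 (Rpl10a), 0.90 (Rpl28), 1.02 (Rpl17), 0.84 (Rps27a) and 0.85 (Rpl15). That scaling moved the median of all tested genes from -0.02 to 0.95; beyond this, the cause was not tested. Depth limits the members with few counts: 45 of 119 did not reach the filter, and 49 had a mean under 1 CPM.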
